A study of Mus musculus with 2 samples.

Results

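The expression of 9 genes of leukocyte adhesion was followed through the cells of 2 postischemic mouse kidneys, chosen by their symbols from the 32285 genes listed in the deposited tables, and all 9 were found once. They encode 5 molecules of the vessel wall (the selectins Sele and Selp, and the immunoglobulin-type ligands Icam1, Icam2 and Vcam1) and 4 molecules of the leukocyte (the selectin ligand Selplg, the integrin subunits Itgam and Itgb2, and the chemokine receptor Cxcr2). Both kidneys came from 9-week-old male C57BL/6 mice that underwent bilateral renal ischemia-reperfusion injury (IRI), in which the blood supply of both kidneys is interrupted and then restored. The control mouse received saline and the other mouse received JPI-289, an inhibitor of poly(ADP-ribose) polymerase, at 100 mg/kg, both into the peritoneum just before reperfusion, and the kidneys were taken 24 h after surgery. There was 1 library of 1 mouse per group and no uninjured kidney, so a difference between the libraries cannot be told apart from a difference between these mice or preparations, no test between the groups was possible, and every interval given here is a 95% interval of counting error only.

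Leukocytes leave the blood in steps. Selectins on activated endothelium catch leukocytes through carbohydrate-bearing ligands such as P-selectin glycoprotein ligand 1, which is encoded by Selplg, chemokines held on the vessel wall then signal through receptors such as CXCR2, and the beta 2 integrins, among them Mac-1 made of the products of Itgam and Itgb2, bind ICAM-1 and ICAM-2 so that the cell stops and crosses the wall. VCAM-1 binds other integrins and serves mainly monocytes and lymphocytes, and in the postischemic kidney this machinery is known for bringing in neutrophils within the first day.

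After cell calling, 3742 cells of the control library and 5048 cells of the JPI-289 library were kept, with a median of 2063 and 1865 unique molecular identifiers (UMIs, each counting 1 captured RNA molecule) per cell. The libraries shared 23 cell barcodes. Cells were clustered without the 9 genes and named from marker genes, and a class is called endothelial, neutrophil and so on only in the sense that its cells carried those markers. All 10 endothelial markers were detected in the endothelial-like class of both libraries, and all 7 neutrophil markers in the neutrophil-like class. The classes used most here held 497 control and 571 JPI-289 endothelial cells, 196 and 654 neutrophils, 69 and 130 monocytes, 131 and 171 macrophages, and 1786 and 1657 proximal tubule cells. A cluster of 6 control and 97 JPI-289 cells led by Ccr7, Ccl5 and Gimap6 stayed unnamed. Levels are in CPM, the UMIs of a gene per 1000000 UMIs of the class in that library, and log2 ratios are JPI-289 over control with 0.5 UMI added to each sum.

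Of the UMIs in kept cells, the endothelial class held 95.5% of Sele in control and 77.8% in JPI-289 kidneys, 91.7% and 81.1% of Selp, 91.2% and 94.6% of Icam2, and 71.1% and 80.6% of Vcam1. Icam1 was the most widely spread of the vessel wall genes, with 49.3% and 63.1% of its UMIs in endothelial cells. Neutrophils held 93.5% and 97.2% of the Cxcr2 UMIs. Red blood cells, which should lack all 9 transcripts, carried 0 of their UMIs in 76 control cells, for which the 95% interval reaches 26.0 CPM, and 1 UMI of Sele and 2 of Icam1 in 123 JPI-289 cells. The 5 red blood cell markers took 793700 and 754000 CPM in this class, so few UMIs were left for other genes. The red blood cell shares given below would therefore be low in any case and cannot measure free RNA in other classes.

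**Figure D1:**
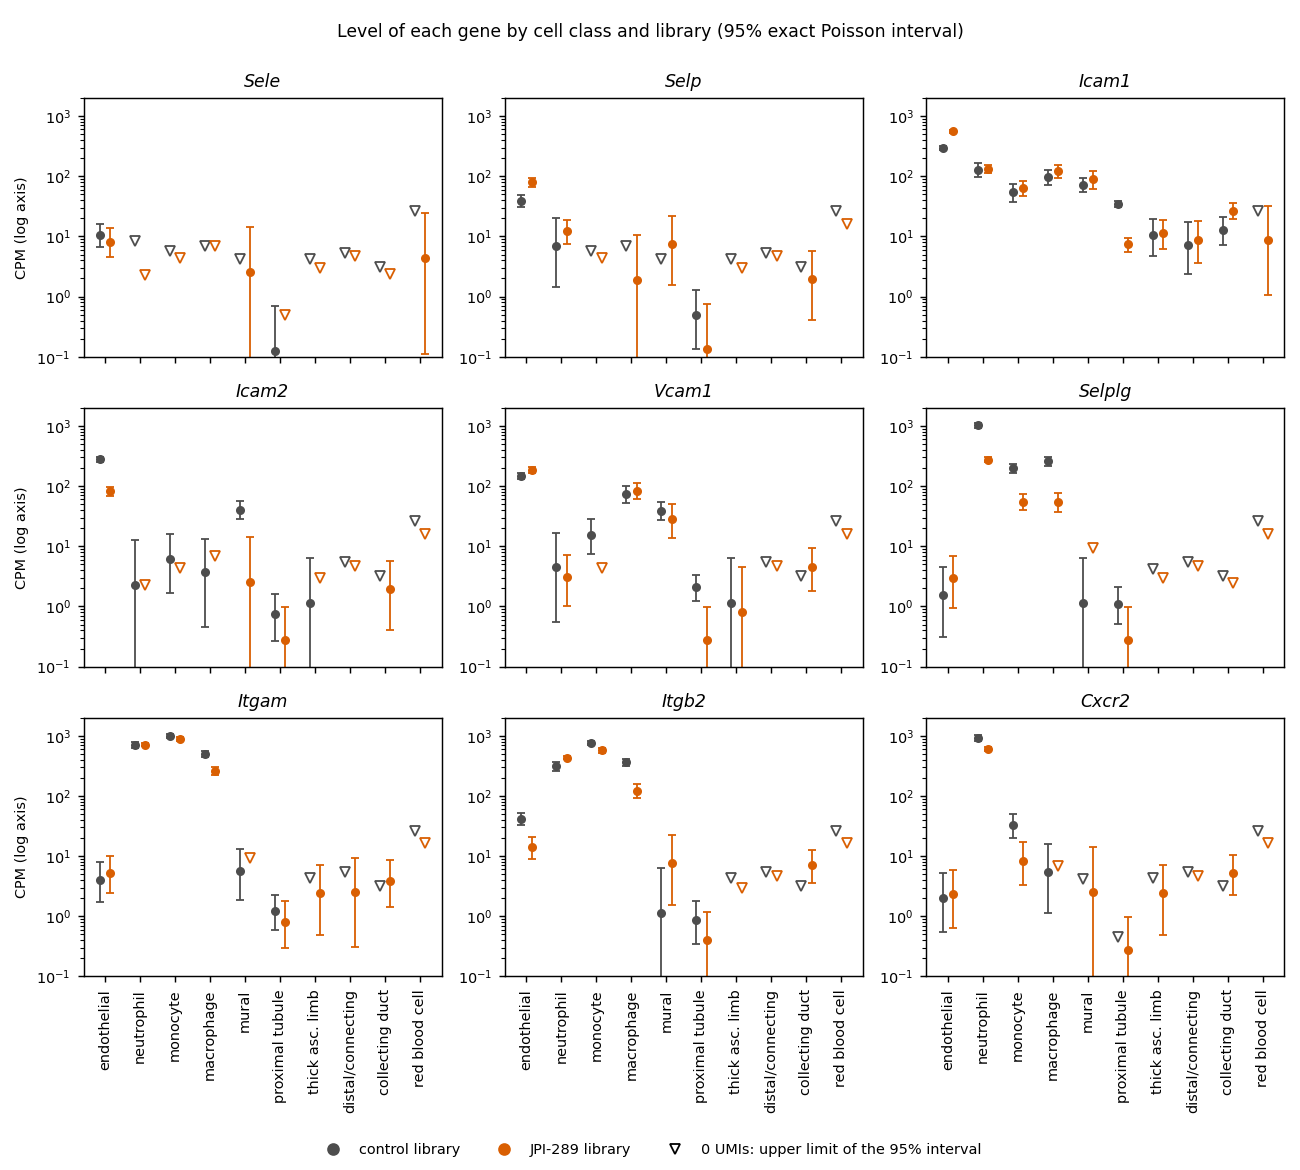
Level of each of the 9 genes in 10 cell classes, in CPM on a log axis, with grey points for the control library, orange points for the JPI-289 library, bars for the 95% exact Poisson interval, and open triangles at the upper interval limit where 0 UMIs were counted. Sele, Selp and Icam2 were highest in endothelial cells and Selplg, Itgam and Cxcr2 in neutrophils, monocytes or macrophages, while Icam1 had points in nearly every class.

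In the endothelial class as a whole, Selp and Icam1 were higher and Icam2 was lower in the JPI-289 library than in the control library. Vcam1 was slightly higher and Sele did not differ beyond counting error. The minimum of 20 UMIs over both libraries was reached by 6 of the 9 genes in this class. Of these, 1 was 2-fold or more higher (Selp), where 5.22% of all 9720 genes measured were, and 2 were 2-fold or more lower (Icam2 and Itgb2), where 18.5% of all genes were. The median log2 ratio of all genes was -0.17, so the typical gene held a slightly lower share of the UMIs of this class in the JPI-289 library. The endothelial class lay in 3 clusters that the libraries filled unequally, with 295 control and 350 JPI-289 cells in the first, 200 and 32 in the second, and 2 and 189 in the third. RNA of other cells also differed in this class. The 5 red blood cell markers summed to 110 CPM in control and 961 in JPI-289 endothelial cells, the 6 markers of the injured proximal tubule to 54.0 and 297, the 6 of the thick ascending limb to 79.0 and 215, and the 7 of mural cells to 337 and 91.6, with all markers of each list detected apart from 1 of the thick ascending limb list in the JPI-289 library. Their part in the endothelial values was not tested.

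The start regions of Sele, Selp and Icam1, the vessel wall genes found in the promoter table, are shown with the RefSeq sequence of GRCm38.p6, from 250 bases before to 50 bases after the annotated start, all on the plus strand. Capitals mark matches on either strand to TATAAA, the core of a TATA box, or to GGAANTTCC, a palindrome close to the NF-kB motif, 2 motifs chosen with these genes in view.
Sele, chr1:164047984-164048283: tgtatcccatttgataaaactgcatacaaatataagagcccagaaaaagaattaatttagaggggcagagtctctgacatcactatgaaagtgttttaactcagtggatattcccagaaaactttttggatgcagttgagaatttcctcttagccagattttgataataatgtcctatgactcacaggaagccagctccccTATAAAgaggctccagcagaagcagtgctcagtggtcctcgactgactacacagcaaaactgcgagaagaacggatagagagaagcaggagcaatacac
Selp, chr1:164115014-164115313: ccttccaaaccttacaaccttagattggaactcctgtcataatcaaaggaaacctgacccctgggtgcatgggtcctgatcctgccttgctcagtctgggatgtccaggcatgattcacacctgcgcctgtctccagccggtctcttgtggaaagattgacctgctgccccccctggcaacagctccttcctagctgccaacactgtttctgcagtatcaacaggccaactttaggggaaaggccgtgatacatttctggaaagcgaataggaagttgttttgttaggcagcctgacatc
Icam1, chr9:21015690-21015989: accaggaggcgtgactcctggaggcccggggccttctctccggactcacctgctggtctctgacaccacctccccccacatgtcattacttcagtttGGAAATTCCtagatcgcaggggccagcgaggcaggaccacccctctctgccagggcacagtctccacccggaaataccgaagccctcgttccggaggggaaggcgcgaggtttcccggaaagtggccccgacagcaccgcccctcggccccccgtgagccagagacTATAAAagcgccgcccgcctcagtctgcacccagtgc
Sele held TATAAA 44 to 49 bases before its start, and Selp held neither motif. Icam1 held TATAAA 13 to 18 bases after the RefSeq start and GGAANTTCC 145 to 153 bases before it. The GENCODE annotation starts Icam1 later, at 21015985, which places this TATAAA before the start. The side on which it lies thus depends on the annotation. TATAAA was in 13.6% of all 32851 mouse promoters of this length and GGAANTTCC in 0.93%. The full NF-kB consensus of 10 letters was in 0 of the 5 promoters that the table holds for these genes (Sele, Selp, Icam1, Itgam and Cxcr2) and in 4.51% of all promoters. A match is a match of letters only.

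Selp, on chromosome 1 at 164115264 to 164150026 of GRCm38 and encoding the P-selectin that endothelium stores in granules, was counted at 77 UMIs in control and 137 UMIs in JPI-289 endothelial cells. These were 39.3 CPM (95% interval 31.0 to 49.1) and 80.0 CPM, a log2 ratio of 1.02 (0.61 to 1.45). The Selp UMIs came from few cells, 16 of 497 control cells (3.22%) and 42 of 571 JPI-289 cells (7.36%). After thinning each cell to 1000 UMIs, 1.67% of control and 4.27% of JPI-289 endothelial cells had a Selp UMI, against 0% of red blood cells in both libraries. The top 3 cells held 53.3% of the control UMIs and 24.1% of the JPI-289 UMIs. Of the 137 JPI-289 UMIs, 108 came from the cluster of 2 control and 189 JPI-289 cells. The clusters that both libraries filled did not show the higher level. Selp was at 47.4 CPM in control and 27.5 in JPI-289 in the larger one (295 and 350 cells). In the other (200 and 32 cells) it was at 29.6 and 32.8 CPM, and the intervals overlapped in both clusters. With each cell given equal weight the log2 ratio of Selp was 1.87. Gm16587 and Gm16548 overlap Selp on the opposite strand.

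Sele, on the same chromosome at 164048234 to 164057677 and encoding the E-selectin that endothelium makes after cytokine stimulation, was low in both libraries. It had 21 UMIs in 16 control cells and 14 UMIs in 10 JPI-289 cells, or 10.7 and 8.17 CPM. The log2 ratio was -0.37 (-1.48 to 0.65), and no difference was detectable at this depth. Of the 16 control cells with a Selp UMI, 6 also had a Sele UMI (37.5%), against 2.08% of the cells without Selp. In the JPI-289 library 4 of the 42 Selp cells had a Sele UMI (9.52%), against 1.13% of the others. Cells with Selp were deeper, with a median of 9534 against 1939 UMIs among control cells and of 4175 against 1724 UMIs among JPI-289 cells.

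Icam1, on chromosome 9 at 21015985 to 21028817 and encoding the inducible ligand of the beta 2 integrins, had 574 UMIs in control and 950 UMIs in JPI-289 endothelial cells. The levels were 293 and 554 CPM, a log2 ratio of 0.92 (0.77 to 1.07), which is under 2-fold, and 1.09 when centred on the median of all genes. An Icam1 UMI was found in 29.6% of control and 34.3% of JPI-289 endothelial cells, and after thinning in 17.3% (13.5 to 21.6) and 26.1% (21.8 to 30.9), with median depths of 2029 and 1963 UMIs. Red blood cells, with median depths of 1519.5 and 1531 UMIs, had one in 0% and 1.63%, and after thinning in 0% in both libraries. One JPI-289 cell held 97 of the 950 UMIs, and without the cell with most Icam1 UMIs in each library the log2 ratio was 0.85. A UMI of a neutrophil, macrophage or monocyte marker was found in 27.8% of control and 28.4% of JPI-289 endothelial cells, and without these cells the log2 ratio of Icam1 was 0.58. Gm47079 overlaps Icam1 on the opposite strand.

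Icam2, on chromosome 11 at 106377656 to 106388075 and encoding the ligand that resting endothelium carries, moved the other way. It had 546 UMIs in control and 140 UMIs in JPI-289 endothelial cells, or 278 and 81.7 CPM. The log2 ratio was -1.76 (-2.05 to -1.50), a 3.40-fold higher level in the control library. An Icam2 UMI was found in 42.3% of control cells (210 of 497) and 17.2% of JPI-289 cells (98 of 571), and after thinning in 25.1% (20.7 to 29.9) and 6.93% (4.58 to 9.99), against 0% of red blood cells. Unlike Selp, the UMIs were spread over many cells, and the top 3 cells held 7.69% and 8.57% of them. Without cells that carried a leukocyte marker the log2 ratio was -1.77. The summed level of the 10 endothelial markers was also lower in the JPI-289 class, at 11560 CPM against 14810, and its part in the result was not tested.

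Vcam1, on chromosome 3 at 116109949 to 116129688, had 286 UMIs in control and 316 UMIs in JPI-289 endothelial cells. The levels were 146 and 184 CPM with a log2 ratio of 0.34 (0.10 to 0.57). The top 3 cells held 18.5% of the control UMIs and 30.4% of the JPI-289 UMIs, and without the top cell of each library the log2 ratio was 0.18. The endothelial cells with a Vcam1 UMI numbered 77 of the control cells (15.5%) and 79 of the JPI-289 cells (13.8%). After thinning, the shares were 5.57% (3.44 to 8.47) and 8.53% (5.91 to 11.8), with overlapping intervals. Of the unthinned cells with a Vcam1 UMI, 64.9% and 65.8% also had an Icam1 UMI, against 23.1% and 29.3% of those without Vcam1. The cells with Vcam1 were deeper, with medians of 6211 against 1696 UMIs in control and 4206 against 1599 UMIs in JPI-289. Gm43109 overlaps Vcam1 on the opposite strand.

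**Figure D2:**
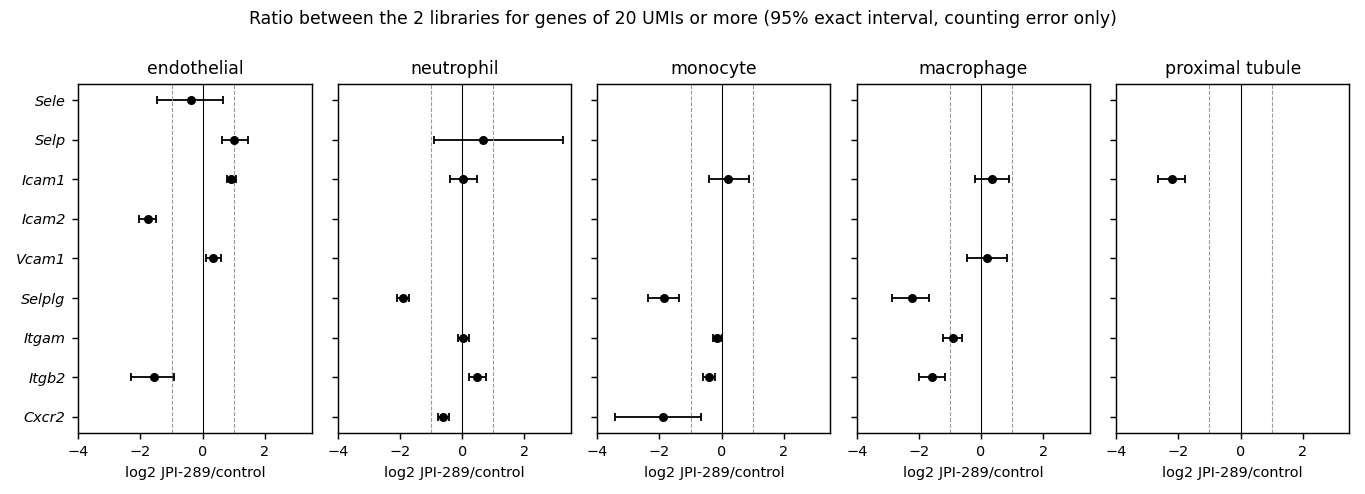
Log2 ratio of JPI-289 over control for each of the 9 genes with at least 20 UMIs over both libraries, in endothelial cells, neutrophils, monocytes, macrophages and proximal tubule cells, with bars for the 95% exact interval and dashed lines at 2-fold. Icam2 in endothelial cells (-1.76), Selplg in the 3 leukocyte classes (-1.90, -1.85 and -2.23), Itgb2 in macrophages (-1.57) and Icam1 in proximal tubule cells (-2.21) lay beyond the lower line with their whole interval.

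Because the clusters of endothelial cells differed between libraries, the class was divided again into 5 sub-clusters, of which 2 held enough cells of both libraries to compare. Sub-cluster 3, with 89 control and 112 JPI-289 cells, was led by genes that included Npy, Mgp, Ccn1, Apln, Edn1, Hspa1b and Hspa1a. Its arterial markers scored 1.59, a mean log2 ratio over the median sub-cluster. Its glomerular markers scored 0.29 and its peritubular and vasa recta markers 0.03. Values of this sub-cluster may therefore not hold for other endothelial cells. In sub-cluster 3 Icam1 was at 171 CPM for the control and 580 for JPI-289, a log2 ratio of 1.76 (1.48 to 2.06). Icam2 in these cells was at 228 and 89.5 CPM (-1.34, interval -1.79 to -0.93), and Vcam1 was at 207 and 329 (0.67, interval 0.37 to 0.97). Selp in the same cells was at 56.4 and 51.0 CPM, with a log2 ratio of -0.14 (-0.82 to 0.53), so the higher Selp of the whole class was not seen there. Among the sub-clusters, the highest Selp level, 113 CPM, was in the 259 JPI-289 cells of sub-cluster 1. That sub-cluster was led by Cd74, Plat and Igfbp3 and held only 10 control cells. Sub-cluster 0 was shallow, with a median of 811 UMIs, and red blood cell and tubule genes led it (Hbb-bs, Gsta1 and Hba-a1). In it Icam2 was at 117 and 19.1 CPM (-2.46, interval -4.56 to -1.13), Vcam1 at 45.5 and 139 (1.58, interval 0.64 to 2.64), and Icam1 at 107 and 124 (0.22, interval -0.59 to 1.00).

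Sub-cluster 2 held 200 control and 2 JPI-289 cells, and leukocyte and platelet genes led it (Ccl6, Ppbp, S100a9, Ngp and Chil3). Its Icam1 level was 474 CPM and its Icam2 level 385 CPM. It also held 55 of the 82 Itgb2 UMIs of the control endothelial class. Itgb2 belongs to leukocytes, and in the whole endothelial class it had 82 and 24 UMIs, a log2 ratio of -1.56 (-2.30 to -0.91). Summed over their lists, neutrophil markers stood at 217 and 130 CPM, monocyte markers at 161 and 48.4, and platelet markers at 179 and 61.9 in control and JPI-289 endothelial cells, with 7 of 7 neutrophil markers detected in both, and the part of such RNA in the Itgb2 difference was not tested. A UMI of a neutrophil, macrophage or monocyte marker was found in 12 of the 26 control endothelial cells with an Itgb2 UMI. The same held for 3 of the 13 such JPI-289 cells. Among all endothelial cells the shares were 27.8% and 28.4%. In sub-cluster 3 Itgb2 was at 17.5 and 19.3 CPM (0.14, interval -1.05 to 1.35).

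On the leukocyte side, Selplg was lower in CPM in the JPI-289 library in neutrophils, monocytes and macrophages. Itgam differed little in neutrophils and monocytes, and the other genes differed by class. Selplg lies on chromosome 5 at 113818536 to 113832644. In neutrophils it had 442 UMIs in 196 control cells and 441 UMIs in 654 JPI-289 cells, or 1016 and 273 CPM, a log2 ratio of -1.90 (-2.09 to -1.70). The share of neutrophils with a Selplg UMI was 74.5% among control and 39.3% among JPI-289 cells, at median depths of 1973 and 2035.5 UMIs, and 62.1% (54.6 to 69.3) and 22.5% (19.2 to 26.1) after thinning. In monocytes the levels of Selplg were 199 and 54.7 CPM (-1.85, interval -2.38 to -1.37), and in macrophages they were 258 and 54.4 (-2.23, interval -2.88 to -1.66). In the cluster led by Ccr7 and Ccl5 they were 1236 CPM, from 17 UMIs in 6 control cells, and 195, from 43 UMIs in 97 JPI-289 cells. The leukocyte classes also differed in their markers. The 7 monocyte markers, all detected, summed to 9938 CPM in control and 4864 in JPI-289 monocytes, and the 8 macrophage markers, all detected, to 14720 and 7089 in macrophages. In macrophages red blood cell markers stood at 79.4 and 3581 CPM (4 and 5 of 5 detected) and neutrophil markers at 611 and 2195 (5 and 7 of 7 detected). The part of these differences in the values of Selplg, Itgam and Itgb2 was not tested. Outside the leukocyte classes and the cluster led by Ccr7 and Ccl5, no class had more than 9 Selplg UMIs in a library.

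Among all genes, 10.3% of the 6259 measured in neutrophils were 2-fold or more lower and 11.6% were 2-fold or more higher. Of the 6 adhesion genes measured there, Selplg was lower and 0 were higher. In monocytes 2 of 5 were lower (Selplg and Cxcr2), where 12.7% of all 6644 genes were lower and 10.3% higher, and in macrophages 2 of 5 were lower (Selplg and Itgb2), where 17.3% of all 6044 genes were lower and 10.9% higher. The 7 monocyte markers summed to 4747 CPM in control and 1327 in JPI-289 neutrophils, with 5 of 7 detected in both, and the part of this difference in the neutrophil values was not tested.

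Itgam, on chromosome 7 at 128062640 to 128118491, encodes the alpha chain of Mac-1. Control neutrophils had it at 694 CPM (302 UMIs) and JPI-289 neutrophils at 713 (1152 UMIs), a log2 ratio of 0.04 (-0.15 to 0.23). In monocytes, where it was highest, it was at 979 and 890 CPM (-0.14, interval -0.29 to 0.02). In macrophages it was at 493 and 261 CPM (-0.92, interval -1.23 to -0.62), and this ratio was -0.29 with each cell given equal weight and -1.60 with only the cells above the UMI threshold. An Itgam UMI was found in 68.9% and 71.7% of neutrophils, and after thinning in 52.0% and 46.9%, against 0% of red blood cells. In both libraries the order of Itgam levels was monocytes, neutrophils, macrophages. The annotation places Gm49368 on the same strand over Itgam.

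Itgb2, on chromosome 10 at 77530252 to 77565708, encodes the beta chain that all beta 2 integrins share. It was higher in JPI-289 neutrophils, at 435 CPM (703 UMIs) against 310 (135 UMIs), a log2 ratio of 0.48 (0.22 to 0.76), and of 0.095 with classes taken from markers without clusters. An Itgb2 UMI was found in 40.8% of control and 52.3% of JPI-289 neutrophils, and after thinning in 28.2% (21.8 to 35.5) and 31.3% (27.5 to 35.2), with overlapping intervals, against 0% of red blood cells. In monocytes it was at 762 and 574 CPM (-0.41, interval -0.59 to -0.22), and in macrophages at 364 and 122 (-1.57, interval -2.01 to -1.17). The macrophage ratio was -1.04 with each cell given equal weight and -2.73 with only the cells above the UMI threshold. In the control library, neutrophils and macrophages were close, at 310 and 364 CPM, while in the JPI-289 library the neutrophil level lay above the macrophage level. Of the neutrophils with an Itgam UMI, 45.9% of control and 62.3% of JPI-289 cells also had an Itgb2 UMI, against 29.5% and 27.0% of those without Itgam, and those with Itgam were deeper, with medians of 2091 against 1856 UMIs and 2327 against 1439 UMIs.

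Cxcr2, on chromosome 1 at 74153989 to 74161246, encodes the main receptor of neutrophils for the chemokines CXCL1, CXCL2 and CXCL3. In neutrophils it was lower in the JPI-289 library, at 605 CPM (978 UMIs) against 920 (400 UMIs), with a log2 ratio of -0.61 (-0.77 to -0.43), and of -0.26 with only the cells above the UMI threshold. A Cxcr2 UMI was found in 72.4% of control and 62.2% of JPI-289 neutrophils, and after thinning in 54.8% (47.2 to 62.3) and 41.6% (37.5 to 45.7), against 0% of red blood cells. In monocytes it was at 32.3 and 8.32 CPM, from 21 UMIs in 8 control cells and 7 UMIs in 4 JPI-289 cells. Neutrophil markers, 7 of 7 detected, stood at 4044 and 3794 CPM in control and JPI-289 monocytes. Their part in this Cxcr2 value was not tested. Summed over the leukocyte classes and the unnamed cluster led by Ccr7 and Ccl5, the direction of Cxcr2 turned, at 259 CPM for the control and 307 for JPI-289. Neutrophils numbered 196 of the 402 control cells and 654 of the 1052 JPI-289 cells in this sum. The 3 other leukocyte genes summed in the same way were at 444 and 174 CPM for Selplg, 735 and 635 for Itgam, and 505 and 392 for Itgb2.

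The leukocytes also carried transcripts of the ligands. Icam1 in neutrophils was at 129 and 132 CPM (0.03, interval -0.39 to 0.49), in monocytes at 53.9 and 63.0 (0.22, interval -0.42 to 0.88), and in macrophages at 96.0 and 122 (0.34, interval -0.20 to 0.90). None of these 3 differences was beyond counting error, but the neutrophil ratio was 1.40 with only the cells above the UMI threshold. Vcam1 in macrophages was at 73.8 and 84.4 CPM (0.19, interval -0.45 to 0.84). Selp in neutrophils was counted at 3 and 20 UMIs, or 6.90 and 12.4 CPM (0.66, interval -0.91 to 3.24).

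In the tubule, Icam1 was the only one of the 9 genes that reached 20 UMIs in a segment, and it was lower in the JPI-289 proximal tubule. Proximal tubule cells had 277 control and 54 JPI-289 UMIs of Icam1, or 34.2 and 7.34 CPM, a log2 ratio of -2.21 (-2.67 to -1.79). Of all 11308 genes measured in this class, 23.5% were 2-fold or more lower and 9.08% were 2-fold or more higher. An Icam1 UMI was found in 9.24% of control and 2.90% of JPI-289 proximal tubule cells, at median depths of 2267 and 1841 UMIs, and after thinning in 3.21% (2.33 to 4.30) and 0.44% (0.14 to 1.02). Barcodes of under 100 UMIs, taken as free RNA, had Icam1 at 29.5 CPM (15.7 to 50.4) in control and 40.7 CPM (22.3 to 68.3) in JPI-289. The level of control proximal tubule cells lay within the free RNA interval of its library, and the level of JPI-289 proximal tubule cells lay under that of its library. Free RNA was estimated at 2.94% of the UMIs of control and 2.13% of those of JPI-289 proximal tubule cells. Similar CPM values therefore do not mean that the Icam1 of these cells was free RNA, and its part was not tested. The same estimate was higher in the classes of the main results. It was 16.0% in control and 17.6% in JPI-289 endothelial cells, and 19.3% and 17.15% in neutrophils. In monocytes it was 4.98% and 6.03%, and in macrophages 11.39% and 11.35%. The part of free RNA in the values of those classes was not tested.

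The proximal tubule clusters were nearly all of 1 library, so the comparison above is between different clusters. Icam1 ranged over the control clusters from 7.25 CPM in the largest (968 cells) through 22.0 and 37.0 to 135 in a cluster of 222 cells whose leading genes held the nuclear RNAs Snhg11, Gm26917 and Neat1. In the JPI-289 clusters it was at 2.29 CPM in the largest (969 cells), 8.98 and 9.90, and genes of the injured tubule were among the leaders there (Krt20, Havcr1, Fgb). Without the control cluster led by nuclear RNA the log2 ratio was -1.70. An unnamed cluster of 14 control and 251 JPI-289 cells, also led by Snhg11, Neat1 and Gm26917, had Icam1 at 30.9 CPM in the JPI-289 library, and counting it with the proximal tubule gave -1.82.

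**Figure D3:**
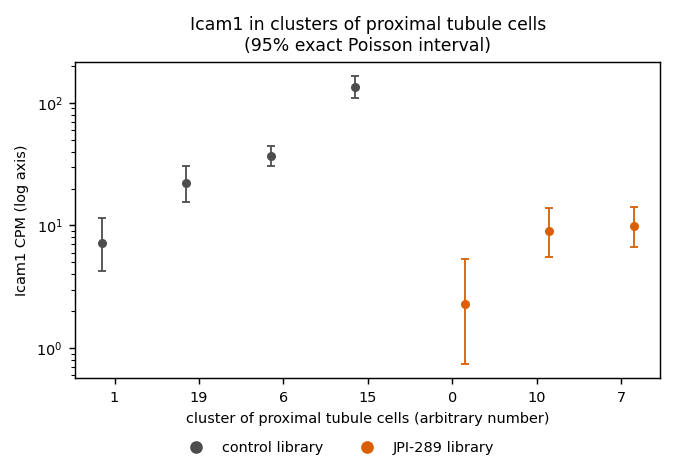
Icam1 level in each cluster of proximal tubule cells with at least 10 cells of a library, in CPM on a log axis, with 95% exact Poisson intervals, ordered by level within the library. The 4 control clusters ran from 7.25 to 135 CPM and the 3 JPI-289 clusters from 2.29 to 9.90.

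Other segments carried little Icam1. The thick ascending limb had 9 and 14 UMIs (10.4 and 11.3 CPM), and the distal convoluted and connecting tubule 5 and 7 UMIs. Collecting duct cells had 15 and 41 UMIs, or 12.8 and 26.8 CPM, a log2 ratio of 1.03 (0.18 to 2.02). In the collecting duct cluster that both libraries filled, with 117 and 147 cells, the levels were 12.9 and 15.9 CPM with overlapping intervals. The remaining JPI-289 collecting duct cells, 294 in number, had Icam1 at 51.9 CPM and were in a cluster with only 5 control cells. A UMI of a neutrophil, macrophage or monocyte marker was found in 41.0% of control and 69.6% of JPI-289 collecting duct cells. Of these lists only the neutrophil markers were higher in the JPI-289 class, at 9.41 and 488 CPM with 4 and 7 of 7 detected. Macrophage markers stood at 44.47 and 30.04 CPM and monocyte markers at 47.89 and 16.32. All 11 cells with an Itgb2 UMI and all 8 with a Cxcr2 UMI had a marker of these lists too. The part of leukocyte RNA in the Icam1 value was not tested. Vcam1 in the proximal tubule was at 2.10 and 0.27 CPM, from 17 and 2 UMIs.

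Mural cells, the contractile cells of vessels, carried 35 Icam2 UMIs in control cells (40.1 CPM) and 1 UMI in JPI-289 cells. The 35 UMIs came from 7 of 162 cells, 13 of them from 1 cell. All 10 endothelial markers were detected in this class, at 1209 and 964 CPM in sum, and the 6 fibroblast markers stood at 5064 and 1621, and their part in the Icam2 value was not tested. Their Icam1 was at 72.2 and 88.8 CPM and their Vcam1 at 39.0 and 27.9, and the intervals of both log2 ratios held 0. Urothelial cells, 15 in the control library, had 44 Icam1 UMIs, or 87.2 CPM.

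A list of 57 other genes of adhesion, integrin activation, chemoattraction and NF-kB signalling, chosen with earlier results known, was read in the same way. In endothelial cells 35 of them were measured, of which 1 was 2-fold or more higher and 6 were lower, beside 5.22% higher and 18.5% lower among all genes of the class, so the list was not set apart from the class by these counts. Its median log2 ratio was -0.24 against -0.17 over all genes. The lower genes included 3 ligands of CXCR2, Cxcl1 (230 and 86.4 CPM, log2 ratio -1.41), Cxcl2 (543 and 254, -1.09) and Cxcl3 (132 and 11.1, -3.54). They also included Itga5, the alpha chain of a fibronectin receptor (258 and 88.1, -1.55), Gcnt1, an enzyme that builds selectin ligands (-2.90), and Rasgrp2, an activator of Rap1 (-1.54). Markers of leukocytes and platelets were also lower in the JPI-289 endothelial class. Neutrophil markers stood at 217 and 130 CPM, monocyte markers at 161 and 48.4, and platelet markers at 179 and 61.9. The part of RNA of other cells in the values of these lower genes was not tested. Alcam, an adhesion molecule of the immunoglobulin type, was the higher one, from 7 and 15 UMIs. Of the 11 genes of the NF-kB group measured in endothelial cells, 0 were 2-fold higher or lower.

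In neutrophils 37 of the 57 genes were measured, 0 were 2-fold higher and 3 were lower, beside 11.6% higher and 10.3% lower among all genes. Among these were Ltb4r1, the receptor of leukotriene B4 (209 and 48.9 CPM, log2 ratio -2.10, interval -2.55 to -1.65), and Cxcl3 (7890 and 3757 CPM, -1.07). In monocytes 43 were measured, 1 was higher and 9 were lower (10.3% and 12.7% of all genes), among them Spn (35.4 and 3.57 CPM, -3.12) and the complement receptor C5ar1 (941 and 338, -1.48). The higher one was Il1r1, from 2 and 24 UMIs. In macrophages 37 were measured, 3 were higher and 12 lower (10.9% and 17.3% of all genes), among them the fractalkine receptor Cx3cr1 (70.1 and 3.75, -3.92), Ltb4r1 (42 and 8 UMIs, -2.30), Tnf (478 and 105, -2.18) and Tln1, the talin that activates integrins (184 and 48 UMIs, -1.91). The 3 higher genes were Cxcl5 (1 and 22 UMIs), the chemokine receptor Cxcr4 (33.2 and 109 CPM, 1.68) and the NF-kB inhibitor Tnfaip3 (297 and 607, 1.03). The median log2 ratios of the list in neutrophils, monocytes and macrophages were -0.20, -0.46 and -0.40, beside 0.11, 0.04 and -0.02 over all genes.

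In the proximal tubule 28 of the 57 genes were measured, 2 were higher and 7 lower, close to the shares of all genes in this class (9.08% higher and 23.5% lower). Cxcl1 was at 144 and 25.3 CPM (-2.51), Gcnt1 at 80.4 and 12.7 (-2.66), and Cx3cl1, the membrane-bound ligand of the fractalkine receptor, at 16.3 and 5.85 (-1.47). The higher genes were Cd44, an adhesion receptor for hyaluronan (2 and 23 UMIs), and Rela, a subunit of NF-kB (122 and 397 UMIs, 1.84).

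The genes whose levels most resembled those of the 9 were sought among 11281 genes by Pearson's correlation of log2 levels over 26 points, each a class in a library. These values are descriptions, since points of a library share its depth and free RNA. For the vessel wall genes they were 9530082P21Rik for Sele (0.799), Rasip1 for Selp (0.913), Arhgap31 for Icam1 (0.902), Ripply3 for Icam2 (0.966) and Acvrl1 for Vcam1 (0.917). For the leukocyte genes they were Bcl2a1d for Selplg (0.974), Tlr13 for Itgam (0.987), Sla for Itgb2 (0.939) and Cd177 for Cxcr2 (0.986), the last a surface protein of neutrophils.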

How the data were processed

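Each kidney gave 1 cell suspension and 1 library with the 10x Genomics Chromium 5′ kit v2. Per the labels, the authors aligned to mm10 with Cell Ranger 5.0.1, and the deposited values are raw UMI counts per gene and barcode (38328760 and 35548396 UMIs). Cells were called by a UMI threshold and a Monte Carlo test against empty droplets (at least 500 UMIs, false discovery rate 0.01), and barcodes over 50% mitochondrial UMIs were removed (541 and 396). Cells were clustered with scanpy 1.11.5 and leidenalg 0.10.2 (resolution 1, 2000 variable genes) without the 9 genes and the 57 other adhesion genes. Clusters were named from markers by a rule set after the clusters had been seen. Scrublet marked 8 of 8790 cells, so it did not work and doublets remain. Members and lists were chosen with earlier results of these data known. Sums per class were compared with exact Poisson and binomial intervals, without a test. Genes of at least 20 UMIs over both libraries count as measured. The genes named are the 9, those of the list past 2-fold (at most 8 per class, by size) and the most correlated one per gene. Scripts were tested on simulated counts. Gene positions are from GENCODE vM21 (GRCm38). A few genes are not reported here.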

Additional observations from a re-analysis of the deposited data

Results flagged for a closer look

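Icam1 differed in direction between tubule segments, with a log2 ratio of JPI-289 over control of 1.03 in collecting duct cells and -2.21 in proximal tubule cells. In the collecting duct cluster that both libraries filled, Icam1 was at 12.9 and 15.9 CPM with overlapping intervals. Neutrophil markers in collecting duct cells stood at 9.41 and 488 CPM, and their part in the Icam1 value was not tested. The proximal tubule clusters were nearly all of 1 library. Itgb2 differed in direction between leukocyte classes, with a log2 ratio of 0.48 in neutrophils and -1.57 in macrophages. The neutrophil value was 0.095 with classes taken from markers without clusters, and the macrophage value ran from -2.73 to -1.04 over the processing choices. After thinning, the shares of cells with an Itgb2 UMI had overlapping intervals between the libraries in both classes. In each case the counting intervals of the 2 classes lay on opposite sides of 0. With 1 library per group neither difference between classes was tested.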

How the results depend on the processing

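Over 14 other processing choices and 4 added after seeing the data, 97 of 106 recomputed log2 ratios (Selp, Icam1, Icam2 and Vcam1 in endothelial cells, Selplg, Itgb2 and Cxcr2 in neutrophils, Icam1 in the proximal tubule) stayed within the counting interval of the reported value and all kept its direction. The ratios of Sele in endothelial cells, of Icam1 and Itgam in neutrophils and of Icam1 in monocytes, whose intervals hold 0, changed sign under at least 1 choice. With each cell given equal weight, the log2 ratio was 1.87 for Selp and -2.06 for Icam2 in endothelial cells. Centred on the median of all genes, Icam1 in endothelial cells was 1.09, and without cells that carried a leukocyte marker it was 0.58. With classes taken from markers without clusters, Itgb2 in neutrophils was 0.095 and Icam1 in the proximal tubule was -1.46. With only the cells above the UMI threshold, Cxcr2 in neutrophils was -0.26, Icam1 in the proximal tubule was -1.74, and Icam1 in neutrophils was 1.40. Icam1 in the proximal tubule was -1.70 without the cluster led by nuclear RNA. The cause of these changes was not tested. Over all alternatives Selplg in neutrophils was -1.87 or lower, and Selp in endothelial cells between 0.84 and 1.87, on both sides of 2-fold. No paired analysis was possible because each group is 1 library of 1 mouse, and for the same reason no replicate could be left out. Depth limits Sele, with 21 and 14 UMIs.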
